A study of Mus musculus with 16 samples.

Results

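Genes of membrane traffic were taken from m6A peak lists of mouse liver by name alone, as every gene whose symbol starts with Rab, Snx, Sec or Vps followed by a digit, or with Tbc1d. The lists held 102 such genes among 7693 genes, and 954 of 77183 peaks fell in them. By role they comprised 26 Rab GTPases, 7 Rab effectors and subunits of Rab regulators, 17 Tbc1d proteins, 15 sorting nexins, 22 Vps proteins, 10 COPII coat, exit site and SNARE proteins of the Sec family, the translocation factors Sec62 and Sec63, and 3 Sec14-like lipid-binding proteins. Vps72, a chromatin protein, entered by its name only.

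Male C57BL/6J mice aged 10 to 11 weeks ate a normal diet (ND, 4 mice, numbered 1, 3, 6 and 7) or a high-fructose diet (HFrD, 4 mice, numbered 1, 2, 5 and 7) for 2 weeks. The high-fructose diet supplied 10% of its energy as fat, 70% as carbohydrate and 20% as protein. Liver RNA fragments bound by an antibody against N6-methyladenosine (m6A), the methylated adenosine of messenger RNA, were sequenced, and so was input RNA, which was not analysed here. The peak list of each mouse was analysed, and a peak is a stretch of exon where immunoprecipitated reads exceeded the background.

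Rab GTPases are small switches that mark membranes while they hold GTP, and TBC-domain proteins turn them off by speeding GTP hydrolysis. COPII proteins coat vesicles that leave the endoplasmic reticulum, sorting nexins and retromer recover cargo from endosomes, ESCRT proteins sort cargo into multivesicular bodies, and the HOPS and CORVET complexes tether endosomes and lysosomes before fusion. In hepatocytes this machinery carries albumin and lipoproteins outward and returns receptors to the surface.

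The sequences below come from exons whose peaks were found in at least 3 more mice of one diet than of the other. They were picked from the exons of this kind after the values were seen, as those of separated genes and regions (Tbc1d31, Sec14l4, Tbc1d5), of a gene with separated peak numbers (Vps33a) and of a pair of paralogs (Rab8a and Rab8b). They were read from GRCm38 on the strand of the gene, 5′ to 3′. Capitals mark the GGAC at the centre of each window, and GGAC is a core form of the m6A consensus. The Sec14l4 windows overlap, so each also holds the GGAC of the other in lower case. In the Tbc1d31 exons 15 and 16, which hold no GGAC, capitals mark each match to DRACH (D is A, G or T, R is A or G, and H is A, C or T). Every GGAC followed by A, C or T also matches DRACH, and only the strand of the gene was searched.
Tbc1d31 exon 15, chr15:57953488-57953640: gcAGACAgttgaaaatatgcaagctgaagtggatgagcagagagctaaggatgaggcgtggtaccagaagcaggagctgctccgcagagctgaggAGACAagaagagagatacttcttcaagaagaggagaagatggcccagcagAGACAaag
Tbc1d31 exon 16, chr15:57955273-57955408: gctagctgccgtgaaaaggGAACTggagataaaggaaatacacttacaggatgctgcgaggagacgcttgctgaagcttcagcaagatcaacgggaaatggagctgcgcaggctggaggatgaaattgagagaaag
Sec14l4 exon 1, first GGAC, chr11:4031840-4031867: agcaccatgagaGGACaagtcggggacc
Sec14l4 exon 1, second GGAC, chr11:4031851-4031878: aggacaagtcggGGACctgagcccgcag
Tbc1d5 exon 17, chr17:50800019-50800046: ccatccccaccaGGACctccacagaagc
Rab8a exon 1, chr8:72161436-72161463: ccgcttctccgaGGACgccttcaactcc
Rab8b exon 1, chr9:66919529-66919556: ccgcttctcagaGGACgccttcaacacc
Vps33a exon 1, chr5:123572886-123572913: gcgcgagttcctGGACaagtgcgctggg

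A motif match describes the letters and does not show that a site was methylated. Among all peaks whose exonic length lay within 20% of that of Tbc1d31 exon 16, 45.3% held GGAC and 93.9% a DRACH match. The same shares were 49.6% and 94.1% at the length of Tbc1d31 exon 15. For Sec14l4 exon 1 and Rab8b exon 1, 40.3% and 58.7% of peaks of like length held GGAC.

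First, the number of genes with a peak was compared. In ND livers 66, 71, 75 and 77 genes of the set held a peak, and in HFrD livers 68, 69, 68 and 56. HFrD mouse 7 was the lowest, and the other 3 HFrD mice lay inside the ND range. Means were 72.2 ± 4.86 genes for ND and 65.2 ± 6.18 for HFrD mice (± SD, n = 4 mice per diet), which is 70.8% and 64.0% of the set beside 70.2% and 64.5% of all genes. Without HFrD mouse 7 the difference of -7 genes was -3.92. When every list was shortened to its 8055 highest scores, the length of the shortest list (HFrD mouse 7), the means were 59.5 ± 3.11 and 59.2 ± 4.57 genes. The difference was then -0.25 genes of the set and -50.8 of all genes.

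**Figure D1:**
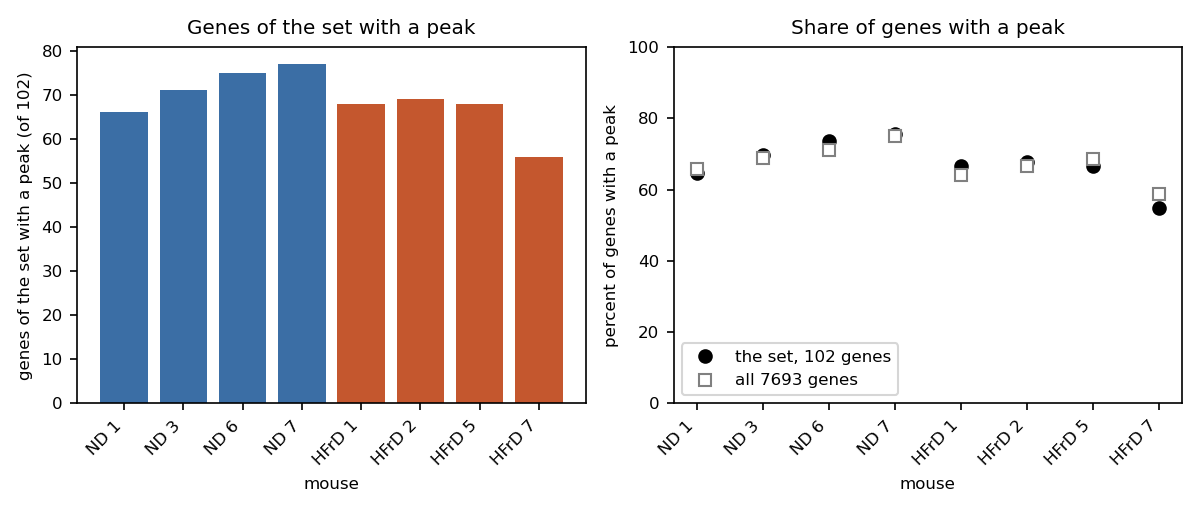
Left, bars give the number of the 102 genes with a peak in each mouse (blue ND, red HFrD), and HFrD mouse 7 is lowest with 56. Right, the share of the set (black) and of all 7693 genes (grey squares) with a peak in each mouse moves together, from 54.9% to 75.5% for the set and from 58.9% to 75.0% for all genes.

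Peaks were common in these families. Of 193 protein-coding genes in the GENCODE annotation whose symbols follow the same pattern, 101 (52.3%) held a peak in at least 1 mouse, beside 33.0% of all protein-coding genes. By family, these were 32 of 69 Rab, 15 of 30 Snx, 15 of 29 Sec, 17 of 30 Tbc1d and 22 of 35 Vps genes. A transcript that liver does not express gives no peak, and the shares are over annotated genes, expressed or not. In the whole liver, fewer cells of a type and less RNA per cell cannot be told apart either.

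Across mice, 38 of the 102 genes (37.3%) held a peak in all 8 livers, beside 39.6% of all genes, and 13 held one in a single liver. Among the Rab GTPases found in every mouse were Rab5a of early endosomes, Rab11a of recycling endosomes, Rab10, Rab12, Rab13, Rab20, Rab21, Rab9 and Rab33b. Tbc1d1, Tbc1d5, Tbc1d9b, Tbc1d10b, Tbc1d15, Tbc1d22a and Tbc1d24 were also found in every mouse, as were Snx2, Snx3, Snx4, Snx7, Snx9, Snx30 and Snx33. The retromer core was uneven: Vps26b held a peak in all 8 mice, Vps26a and Vps35 in 1 ND and 2 HFrD mice each, and Vps29 in 1 ND mouse. Of the ESCRT genes, Vps36 and the ATPase gene Vps4a were found in all 8 mice, Vps37b of ESCRT-I in 7, and its paralogs Vps37a and Vps37c in 2 and 1. Vps18 and Vps41 of HOPS were found in all 8 mice, while Vps16 was found in 1.

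**Figure D2:**
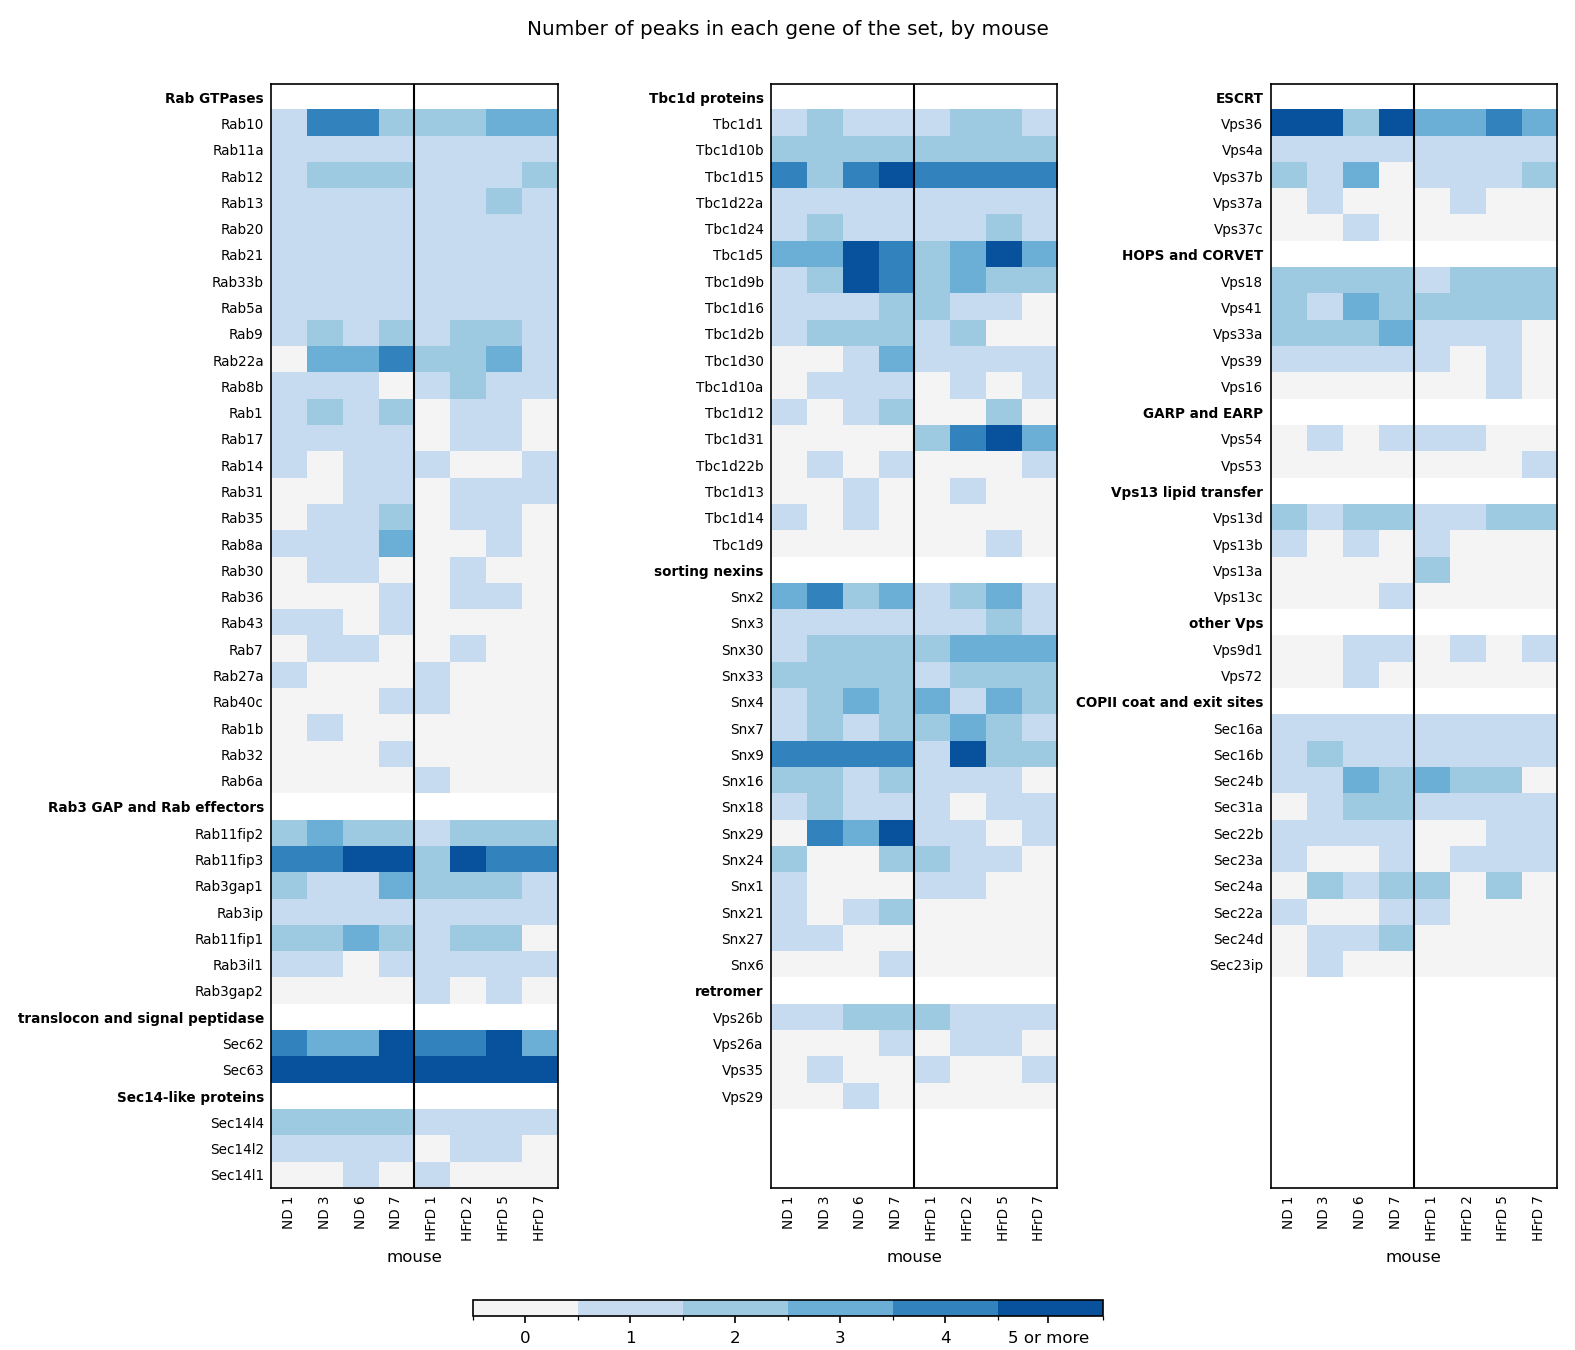
Number of peaks in each of the 102 genes (rows, grouped by role) in each mouse (columns, ND left and HFrD right of the black line), with darker blue for more peaks. Rab11a, Rab20 and Sec16a hold 1 peak in every mouse, while Tbc1d31 is filled in the 4 HFrD mice alone and Sec14l4 steps from 2 peaks to 1.

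Sec63 carried the most peaks per mouse, and exons of Sec63 and Sec62 were among the most enriched of the set. Their products help secretory proteins pass through the Sec61 channel into the endoplasmic reticulum. Sec63 held 7.5 peaks in ND and 7.75 in HFrD mice on average, and Sec62 held 4 on each diet. In exon 17 of Sec63 (chr10:42815055-42815213) fold enrichment, the ratio of immunoprecipitated to background signal, was 27.3, 41.0, 34.4 and 34.6 in ND and 25.4, 27.3, 63.8 and 24.6 in HFrD mice. The last exon of Sec62 (chr3:30818500-30820549), which is mainly 3′ untranslated region (3′UTR) and holds 6 GGAC, stood at 44.9, 36.5, 38.9 and 41.5 in ND and 44.0, 41.3, 40.5 and 38.1 in HFrD mice. The diets overlapped in both exons.

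Rab11fip3, an effector of Rab11, held 4.5 peaks in ND and 3.75 in HFrD mice. Tbc1d15, a GTPase-activating protein for Rab7, held 3.75 and 4, and Vps36 of the ESCRT-II complex held 4.25 and 3.25. The highest median enrichment of the set lay in the first exon of Tbc1d5 (chr17:51179100-51179352), at 49.9, 51.6, 45.5 and 35.0 in ND and 41.7, 49.1, 43.2 and 42.4 in HFrD mice.

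Levels also overlapped between the diets in the leading genes of most role groups, Sec14l4 excepted, which is described further on. Exon 1 of Rab11a ranged from 19.3 to 26.5 in ND and from 14.3 to 27.5 in HFrD mice, and exon 1 of Vps4a from 16.6 to 27.9 and from 14.6 to 23.8. Exon 1 of Sec16b, which organises endoplasmic reticulum exit sites, ranged from 6.16 to 17.8 and from 7.84 to 27.5. Exon 1 of Vps41, a subunit of HOPS, ranged from 7.97 to 15.7 and from 9.34 to 15.3. For Snx9, which acts with dynamin in endocytosis, exon 1 ranged from 12.2 to 22.4 and from 13.02 to 21.9. Exon 1 of the lipid transfer gene Vps13d ranged from 12.7 to 20.8 and from 10.2 to 18.4. Vps26b exon 1 ranged from 5.24 to 11.9 in 4 ND mice and from 5.07 to 9.07 in 3 HFrD mice. Vps54 of the GARP complex and Vps9d1, which holds a VPS9 domain, were found in 2 mice of each diet.

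Presence of a peak was then set against diet, gene by gene. Fisher's exact test was run for each of 2839 genes that at least 2 mice held and at least 2 lacked, 40 of them in the set. Tbc1d31 alone in the set was found in every HFrD mouse (4 of 4) and never in ND mice, while 0.423% of all tested genes had this pattern. None of the 40 genes had the opposite pattern, found in 0.986% of all tested genes. Tbc1d31 reached the smallest p that 4 against 4 mice allow (Fisher's exact test, two-sided, p = 0.0286, adjusted p = 1). No gene passed after Benjamini-Hochberg adjustment over all 2839, and 40 of them had an unadjusted p below 0.05, which only full separation gives.

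Tbc1d31 encodes a TBC-domain protein that in human cells is found at centriolar satellites, and its gene lies on chromosome 15 from 57912199 to 57970067 on the plus strand. ND mice held 0, 0, 0 and 0 peaks in it, and HFrD mice 2, 4, 5 and 3. The level of the transcript was not analysed here, so fewer transcripts and less methylation in ND livers cannot be told apart. Its peaks formed 5 regions, where a region merges overlapping peaks of all mice, and every region lay in the second part of the gene. In exon 15 of 21 the fold enrichment was 5.67, 5.40, 7.25 and 6.44 in the HFrD mice. In exon 16 it was 9.79, 8.19, 5.10 and 4.77. A region of 195 nt (chr15:57962069-57962263), an exon of a shorter transcript, held peaks in 3 HFrD mice at 6.84, 9.43 and 6.92.

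The peaks of exon 15 ran from 57953488 to 57953838, past the 153 nt of the printed exon. All 4 HFrD mice held the peaks of exons 15 and 16 also when the lists were shortened to equal length. Their scores (-10 times log10 of the p-value) ran from 70.3 to 226.6, and with a score of at least 100 each exon kept a peak in 3 HFrD mice and in no ND mouse.

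Differences of at least 3 mice were found for 5 genes of the set. Rab8a was found in 4 ND mice against 1 HFrD mouse, and Rab43, Sec24d and Snx21 in 3 against 0, so that 4 of 40 genes leaned to ND by this margin (7.78% of all tested genes), and Tbc1d31 was the 1 gene that leaned to HFrD (2.64% of all). Sec24d is a cargo-binding subunit of the COPII coat, Rab43 acts at the Golgi apparatus, and Snx21 is an endosomal sorting nexin. With lists of equal length Rab43 kept its 3 ND mice, Rab8a had 3 ND mice and 1 HFrD mouse, Snx21 had 1 ND mouse and Sec24d had none. Fisher's exact test gave p = 0.143 for each of these 4 genes (two-sided, adjusted p = 1).

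Rab43 exon 1 (chr6:87811347-87811779) had fold enrichments of 8.54, 10.6 and 10.47 in ND mice 1, 3 and 7, with scores from 223.8 to 425.2. The last exon of Snx21 (chr2:164791713-164793438) had 5.80, 3.46 and 5.13 in ND mice 1, 6 and 7. Sec24d held 0, 1, 1 and 2 peaks in ND mice. Each of these 3 genes was also without a peak in 1 ND mouse.

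Of the genes just short of this margin, Rab1, Rab17, Sec22b, Sec14l2, Tbc1d2b and Vps39 were found in 4 ND and 2 HFrD mice. Tbc1d12 was found in 3 ND mice and 1 HFrD mouse, and Tbc1d30 in 2 ND and 4 HFrD mice. Rab1 acts between endoplasmic reticulum and Golgi, Rab17 is an epithelial Rab, Sec22b is a SNARE of the same early route, and Vps39 is a subunit of HOPS. Snx27, which binds retromer, and Tbc1d14 were found in 2 ND mice alone, and Rab3gap2, the noncatalytic partner of Rab3gap1, in 2 HFrD mice alone. The lists leaned to ND over all genes too, with 31.8% found in more ND mice and 17.7% in more HFrD mice. The share of all genes at this margin was not computed.

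At the level of regions, 113 of 227 regions of the set could be tested, among 7446 in all. Of these, 2 were found in every ND mouse and never in HFrD mice, in Sec14l4 and Tbc1d5 (0.86% of all tested regions), and 2 in every HFrD mouse and never in ND mice, both in Tbc1d31 (0.215% of all). Each had p = 0.0286 by Fisher's exact test (two-sided, adjusted p = 1), and of all 7446 regions none passed after adjustment while 80 had an unadjusted p below 0.05.

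Sec14l4 encodes a lipid-binding protein of the Sec14 family, which in yeast regulates phospholipid transport at the Golgi. Its exon 1 (chr11:4031782-4031899), which holds the start codon and both GGAC windows printed above, had fold enrichments of 8.50, 7.42, 6.33 and 5.34 in ND mice and no peak in HFrD mice. Its last exon (chr11:4046213-4048024), mostly 3′UTR with 8 GGAC, was peaked in all 8 mice, at 8.52, 8.24, 8.99 and 8.93 in ND and 5.73, 7.03, 7.29 and 5.36 in HFrD mice. Every HFrD value of the last exon was below every ND value.

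Tbc1d5 encodes a GTPase-activating protein that acts on Rab7 and binds retromer. Its region over exon 17 of 22 (chr17:50799686-50800195) had fold enrichments of 7.49, 7.56, 5.97 and 5.48 in ND mice and no peak in HFrD mice. Exon 1 of the same gene was strongly enriched in all 8 mice, as given above. Scores of the 2 regions that ND mice alone held were low, from 52.3 to 177.9 in Sec14l4 exon 1 and from 57.5 to 90.3 in Tbc1d5 exon 17. With lists of equal length each was left in ND mice 1 and 3 only.

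Rab8a and Rab8b, close paralogs that carry cargo from the Golgi and recycling endosomes to the cell surface and cilia, showed opposite patterns in exon 1. These were singled out after their values were seen and are described without a test of the difference. Rab8a exon 1 (chr8:72161200-72161482) had fold enrichments of 5.94, 7.53, 4.26 and 14.6 in ND mice, and 5.54 in HFrD mouse 5 alone. Rab8b exon 1 (chr9:66919510-66919705) had 8.93, 9.05, 11.8 and 11.1 in HFrD mice, and 7.71 in ND mouse 6 alone.

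The coding parts of both first exons are 124 nt long and identical at 108 positions (87.1%). In both, a GGAC starts at position 90 from the start codon, and the 28 nt windows printed above differ by C10A and T26A, counted from the 5′ end with the Rab8a base first. Rab8a exon 1 holds 2 GGAC and Rab8b exon 1 holds 1. The other GGAC of Rab8a lies in the coding sequence (window chr8:72161391-72161418) and is not printed. With lists of equal length Rab8b exon 1 was held by 4 HFrD mice and no ND mouse, and Rab8a exon 1 by 3 ND mice and HFrD mouse 5. Scores ran from 52.7 to 387.7 in Rab8a exon 1 and from 62.5 to 206.3 in Rab8b exon 1. With a score of at least 100, Rab8a exon 1 was left in 2 ND mice alone and Rab8b exon 1 in 2 HFrD mice alone. Over the whole gene, Rab8b held a peak in 3 ND and 4 HFrD mice. How reads of such similar exons were assigned is not given in the sources used here, so counts of the paralogs are uncertain where they share sequence.

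**Figure D3:**
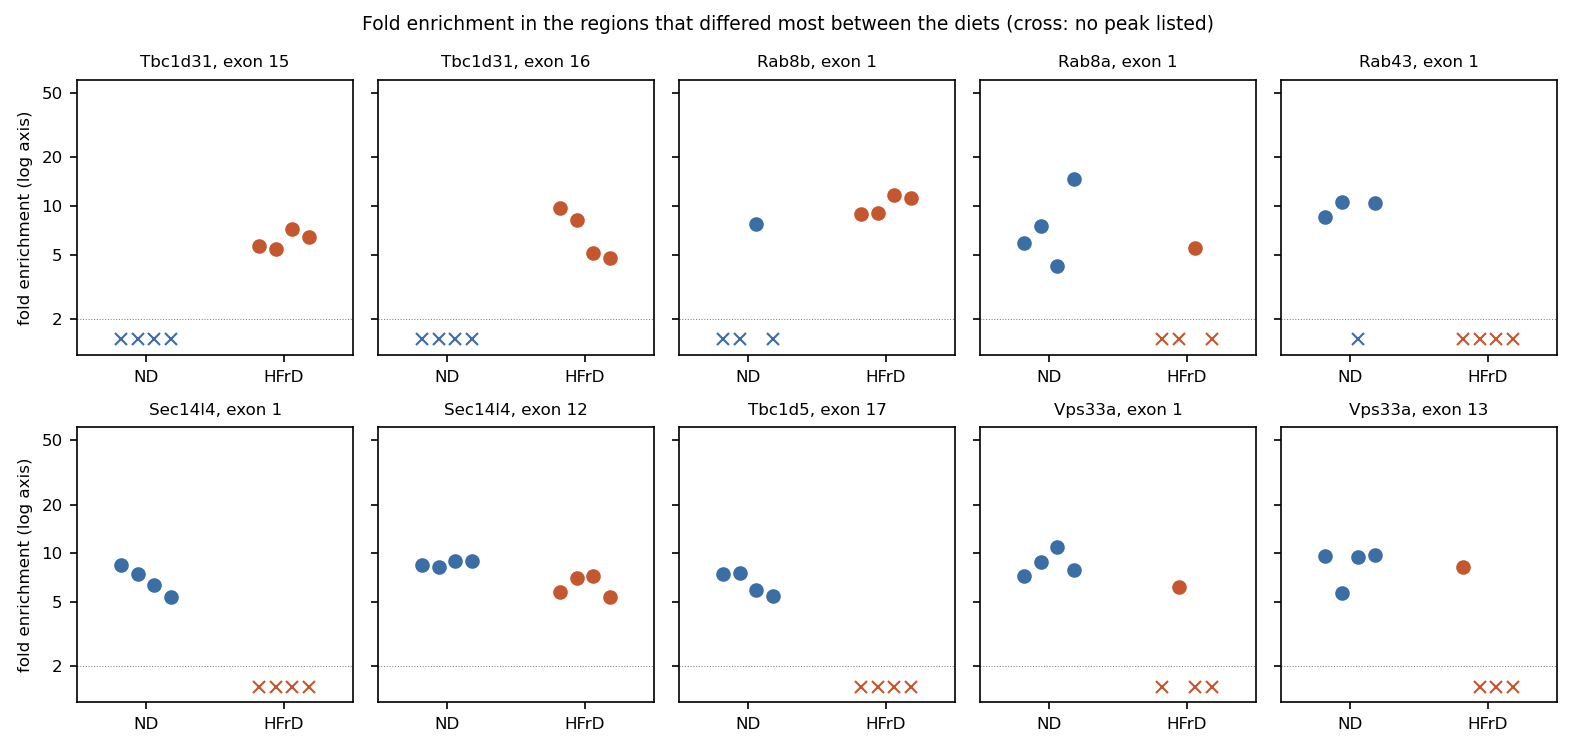
Fold enrichment (log axis) of 10 regions named in the text in ND (blue) and HFrD (red) mice, 1 point a mouse in the order of mouse number, with crosses under the dotted line where the list of a mouse held no peak. Both Tbc1d31 exons have crosses in ND alone, Sec14l4 exon 1 and Tbc1d5 exon 17 in HFrD alone, and Rab8a and Rab8b mirror each other apart from 1 mouse each.

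The number of peaks per gene was then compared over 5368 genes held by at least 4 mice, 69 of them in the set. It did not overlap between the diets for 2 genes with more peaks in ND (0.95% of all tested genes) and for Tbc1d31 with more in HFrD livers (0.261% of all). Sec14l4 held 2, 2, 2 and 2 peaks in ND and 1, 1, 1 and 1 in HFrD mice. Vps33a, which encodes a Sec1/Munc18-family subunit of HOPS and CORVET, held 2, 2, 2 and 3 peaks in ND and 1, 1, 1 and 0 in HFrD mice. All 3 had p = 0.0286 (exact permutation test, two-sided, adjusted p = 1), and 65 of the 5368 genes had an unadjusted p below 0.05.

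For Vps33a both ends of the transcript contributed. Exon 1 (chr5:123572880-123573015) had fold enrichments of 7.21, 8.86, 10.9 and 7.85 in ND mice and 6.18 in HFrD mouse 2 alone. The last exon (chr5:123528760-123531221) had 9.67, 5.66, 9.50 and 9.75 in ND mice and 8.17 in HFrD mouse 1 alone. With lists of equal length exon 1 was held by 4 ND mice and no HFrD mouse. The peak numbers of Vps33a and Sec14l4 overlapped between the diets at equal length, at 2, 2, 2 and 1 against 1, 0, 0 and 0 and at 2, 2, 1 and 1 against 1, 1, 1 and 1, and those of Tbc1d31 stayed apart. Snx29, a sorting nexin singled out after its values were seen, held 0, 4, 3 and 5 peaks in ND and 1, 1, 0 and 1 in HFrD mice, which overlapped through ND mouse 1.

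Averaged over the genes of a mouse, the set held 1.78 ± 0.168 peaks per gene for ND and 1.67 ± 0.134 for HFrD mice (± SD, n = 4 mice per diet), a difference within the spread between mice. Of the 102 genes, 54 had a higher mean peak number in ND, 23 in HFrD and 25 the same in both, beside 3684, 1987 and 2022 of all 7693 genes. By presence, 36 genes (35.3%) were found in more ND mice and 20 (19.6%) in more HFrD mice, beside 31.8% and 17.7% of all genes. In the COPII group 6 of 10 genes were found in more ND mice and 2 in more HFrD mice, and the Rab GTPases had 10 and 5 of 26. Counts this small, in genes that share livers, were not tested.

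Fold enrichment was compared in the 39 regions of the set that held a peak in all 8 mice, among 4346 such regions in all. Values were taken as log2 and centred on the median of each list. Regions that a list missed are left out, so low values are cut off. With limma, none of the 39 regions passed an adjusted p of 0.05 (0% of all tested regions), and the smallest adjusted p in the set was 0.463. Of the 39, 3 had an unadjusted p below 0.05, all lower in HFrD livers, beside 417 of 4346 (9.60%). The estimate was lower in HFrD for 24 regions and higher for 15, with a median of -0.09, beside a median of 0.00 over all regions.

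The last exon of Tbc1d10b, a TBC-domain GTPase-activating protein, had the smallest p. It holds the stop codon (chr7:127197705-127199212) and stood at 25.02, 25.8, 24.2 and 22.1 in ND and 20.3, 14.6, 14.99 and 16.1 in HFrD mice, so that the deposited values did not overlap, while the centred values did. The centred difference was -0.48 ± 0.20 on the log2 scale (SE, limma, n = 4 each, adjusted p = 0.463). Exon 1 of the same gene differed by -0.03 ± 0.24.

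Rab20 of endosomes and phagosomes showed a difference of -0.49 ± 0.21 in its last exon (chr8:11453392-11454526), with 19.0, 16.7, 27.0 and 27.4 in ND and 18.6, 12.8, 16.9 and 11.8 in HFrD mice (limma, adjusted p = 0.475). In exon 14 of Sec63 (chr10:42810843-42810925) the difference was -0.50 ± 0.23, from 6.32, 6.36, 6.04 and 11.3 in ND to 4.29, 4.61, 7.35 and 3.66 in HFrD mice (limma, adjusted p = 0.511). The ND and HFrD values of both regions overlapped. The last exon of Sec14l4 differed by -0.37 ± 0.19 (limma, adjusted p = 0.559). It was the 1 region of the set whose centred values did not overlap with ND higher (2.67% of all regions), and no region of the set had HFrD higher without overlap (2.62% of all). Exon 3 of Rab11fip2, an effector of Rab11, followed with -0.43 ± 0.28. Leaving out each mouse in turn, this value ranged from -0.62 to -0.16 (-0.16 without ND mouse 1) and that of Sec63 exon 14 from -0.66 to -0.33 (-0.33 without ND mouse 7).

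In the other direction, exon 1 of Tbc1d15 (chr10:115251382-115251493) stood at 21.4, 19.3, 34.3 and 18.6 in ND and 34.9, 29.1, 19.8 and 34.6 in HFrD mice. It differed by 0.44 ± 0.27, exon 4 of Sec62 by 0.31 ± 0.22 and exon 1 of Vps36 by 0.28 ± 0.20. Exon 17 of Rab3gap1, the catalytic subunit of the GTPase-activating protein of Rab3, differed by 0.18 ± 0.21 and the last exon of Sec62 by 0.11 ± 0.18. Adjusted p-values of these 5 regions lay between 0.616 and 0.885 in limma, and the mice of both diets overlapped in each. Leaving out each mouse in turn, Rab3gap1 ranged from 0.04 (without HFrD mouse 5) to 0.28, Sec62 exon 4 from 0.15 (without ND mouse 6) to 0.49 (without ND mouse 1), Tbc1d15 from 0.30 to 0.67 (without HFrD mouse 5), Vps36 from 0.18 (without HFrD mouse 2) to 0.39, and the last exon of Sec62 from 0.09 to 0.17 (without ND mouse 1).

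**Figure D4:**
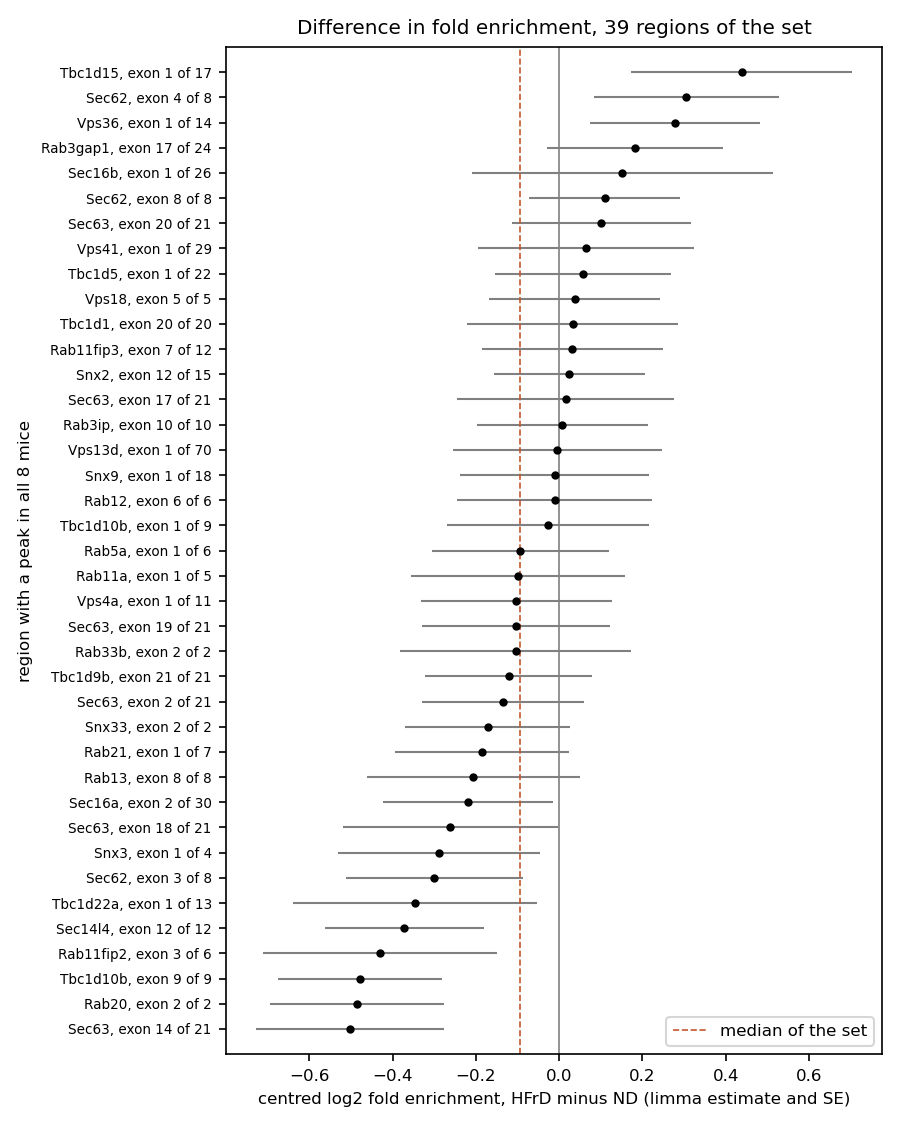
Difference in centred log2 fold enrichment between HFrD and ND mice (points, limma estimate, bars 1 SE) for the 39 regions of the set with a peak in all 8 mice, ordered by size. The median (dashed) is -0.09, and no region passed the adjusted p of 0.05.

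Peaks of the set lay around the start codon and in the 3′UTR more often than peaks at large, and in the rest of the coding sequence less often. Of the 943 peaks that could be placed, by their midpoint, 36.9% ± 1.76 for ND and 34.5% ± 4.80 for HFrD mice (± SD, n = 4 mice per diet) lay within 200 nt of the start codon, beside 25.3% ± 0.798 and 24.8% ± 0.895 of all peaks. The set was above all peaks in 8 of 8 mice there, and also in the 3′UTR, with 14.4% and 14.95% beside 9.76% and 9.43%. It was below in 8 of 8 mice in the rest of the coding sequence, with 32.7% and 33.9% beside 49.2% and 50.3%. Around the stop codon the shares were 13.5% and 14.4% beside 12.8% and 12.6%. In the 5′ untranslated region they were 2.52% and 2.32% beside 2.90% and 2.81%, with the set below all peaks in 6 of 8 mice. The mice share most genes, so they are not independent evidence of the position, and the diets overlapped in every segment.

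First exons held 31.7% and 28.8% of the peaks of the set beside 22.9% and 22.2% of all peaks. Since 70.0% and 70.5% of the peaks of the set spanned 1 whole exon and touched no other exon, the position of a peak is mostly that of its exon. A peak that ran past its exon was counted too. GGAC was in 62.5% ± 0.793 of the peaks of the set for ND and 57.7% ± 3.14 for HFrD mice, below 71.1% and 70.1% of all peaks in 8 of 8 mice. In the set the diets did not overlap in this share, with 61.5% to 63.4% for ND and 53.9% to 60.9% for HFrD mice, while over all peaks they did. Peaks of the set were also shorter in 8 of 8 mice, with median exonic lengths from 198 to 260 nt beside 247 to 290 nt, and per kilobase they held 5.25 and 4.84 GGAC beside 4.94 and 4.88. Within the set GGAC per kilobase overlapped between the diets, at 4.91 to 5.41 for ND and 4.45 to 5.10 for HFrD mice. Median exonic length ran from 218 to 260 nt and from 198 to 223.5 nt. The share with a DRACH match overlapped too, at 91.1% to 94.0% and 91.2% to 93.5%. The part of peak length in the GGAC share was not tested.

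**Figure D5:**
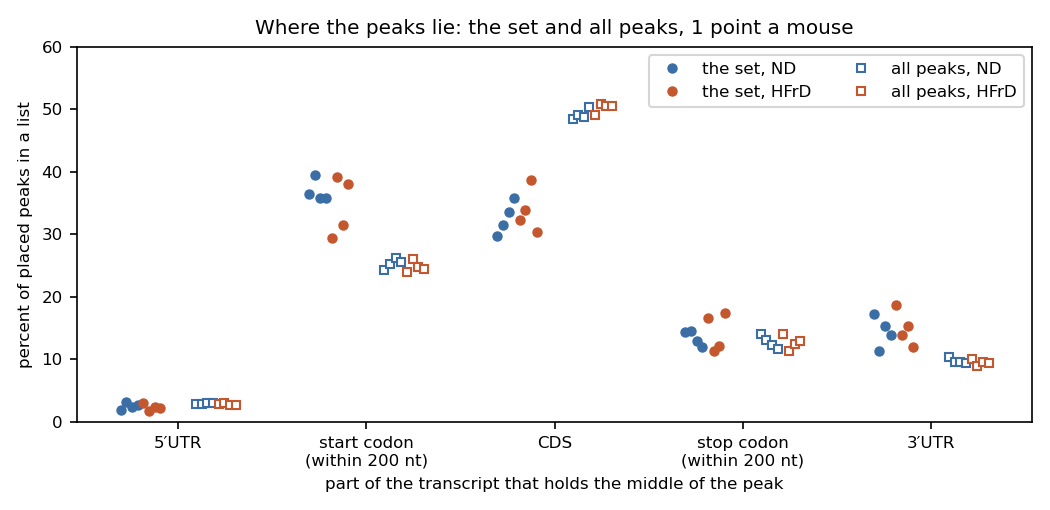
Share of placed peaks in each part of the transcript for the set (filled circles) and all peaks (open squares), 1 point a mouse (blue ND, red HFrD). The set sits between 29.4% and 39.5% at the start codon, above all peaks at 24.0% to 26.2%, and below them in the coding sequence.

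Other genes of membrane traffic were taken from lists made by hand. Of 43 further genes of the Rab cycle, such as Rab exchange factors and GDP dissociation inhibitors, 31 held a peak, 14 of them in all 8 mice, with 9 in more ND and 6 in more HFrD mice. Of 45 further coat genes 31 held a peak, 14 of them in all 8 mice, with 9 leaning to ND and 2 to HFrD. Of 36 further genes of endosomal sorting 23 held a peak, 11 of them in all 8 mice, with 9 leaning to ND and 2 to HFrD. Of all genes with a peak, 31.8% were found in more ND mice and 17.7% in more HFrD mice. None of the genes on these lists separated the diets in all mice. Igf2r, the receptor that carries lysosomal enzymes, was found in 4 ND mice and 1 HFrD mouse. Ap1g1, a subunit of the AP-1 adaptor, and the GTPase gene Arf6 were found in 3 ND mice alone. A lean of at least 3 mice to ND was reached by 7.78% of all tested genes.

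Markers of liver cell types were scanned in the same lists, where presence of a peak does not measure expression. Of 10 hepatocyte markers 6 held a peak, while Alb, Cps1, Cyp2e1 and Serpina1a held none. Peaks of Kupffer cell markers were held by 3 to 5 of 8 listed genes in each ND mouse and by 3 to 5 in each HFrD mouse, and 6 of the 8 held one in any mouse. Of these 6, 3 leaned to ND, 2 leaned to HFrD, among them Marco in 4 HFrD mice alone, and 1 was even. The part of cell composition, transcript abundance and list length in the differences above was not tested, except where values at equal list length are given.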

How the data were processed

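Liver RNA of 8 mice was sequenced after m6A immunoprecipitation and as input, and 8 peak lists were analysed. Per the submitters' processing notes, cutadapt 1.9.3 and HISAT2 2.0.4 were run on the reads, with mm10 as the genome. For each mouse the authors ran MACS, whose version is not given in the sources used here, and most listed peaks of the set spanned a whole exon. The deposited score is -10 times log10 of the p-value (lowest 50). Fold enrichment, as deposited, is the ratio of immunoprecipitated signal over background. MACS's false discovery rate was deposited in percent, and in the set its lowest value was 46.2% and its median 90.8%, so peaks are weakly supported singly and recurrence over mice carries the comparisons. Read depth was not analysed here, so only list length, 8055 to 11517 peaks, measures yield, and a missing peak can reflect low abundance. The deposited length in bp of a peak, another unit, was used for description.

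Groups follow the labelled diet, and 1 was added to each start. Members and gene lists were chosen with earlier results of these data known. A gene was present in a mouse with any peak. Overlapping peaks (1 bp) of a gene were merged into regions. Presence was tested by Fisher's exact test where at least 2 mice had and 2 lacked a peak, peak number by exact permutation over the mice for genes in at least 4 mice, and log2 fold enrichment of the strongest peak by limma 3.58.1 (R 4.3.3, trend), all two-sided and adjusted by Benjamini-Hochberg over all genes or regions. P-values measure the spread between these mice. Peaks were placed on RefSeq or GENCODE M21 models of GRCm38 by their midpoint (98.8% of peaks of the set); printed sequences come from the RefSeq genome. Genes named were those separated, at least 3 mice apart, in separated regions, with the 5 smallest limma p-values per direction, with the most peaks (5), with peak numbers apart, or leading their role group; others are named in counts. Alternatives were a fold minimum (3), lists of equal length, each mouse left out, mice 1 and 7 compared by number, all but at most 1 mouse, coverage of 50%, no centring, within-list percentile, mean of peaks, at least 3 mice per diet, segments of 100 nt and DRACH; a fold minimum of 5 and a score minimum of 100 were added after seeing the data. Python 3.11.15 and pysam 0.24.0 were used, and calculations were tested on simulated data.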

Additional observations from a re-analysis of the deposited data

Results flagged for a closer look

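In all, 2 values stood apart from the other 3 mice of their diet, by a gap above Dixon's 95% limit for 4 samples, among 30 groups of 4 values looked at; chance alone puts about 1 in 20 groups past this limit. HFrD mouse 7 held a peak in 56 genes of the set, against 68 to 69 in the other HFrD mice, and its list was also the shortest of all. In the last exon of Sec62 (start 30818500), ND mouse 1 had a centred log2 fold enrichment of 2.04, against 1.78 to 1.82 in the other ND mice.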

How the results depend on the processing

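The 4 mice a diet and lists without depth limit every call. No region of the set passed after adjustment in limma under the settings it was run with (over all regions, 1 passed without HFrD mouse 7). Tests of presence and peak number were run only on the lists as deposited. Their smallest possible p, 0.0286, did not pass adjustment over all genes or regions. No named gene changed direction, but some differences vanished. Sec24d had no peak left at equal list lengths, and Snx21 had none at a score of at least 100. At equal list lengths the difference in genes with a peak was -0.25, 1 region was held by ND mice alone (Vps33a exon 1) and 0 genes had more peaks in ND without overlap. Allowing 1 missing mouse gave 3 genes in ND mice alone, beside 124 of all 7693 genes, and 5 regions. For the other counts of separated genes and regions in this paragraph, counts over all genes and regions were not computed. A fold enrichment of at least 5 left 1 region in HFrD mice alone, and a score of at least 100 left 1 region in ND mice alone (Rab11fip1), 0 in HFrD mice alone and 0 genes with more peaks in ND. Regions with fold enrichment apart and ND higher numbered 2 without centring, 2 by percentile and 4 with at least 3 mice per diet, which also gave 1 with HFrD higher. Without centring the median difference of the set was -0.18. Segments of 100 nt gave 24.6% of peaks at the start codon, 5.39% at the stop codon, 44.7% in the coding sequence and 18.4% in the 3′UTR, and 92.4% of peaks held DRACH. Leaving out 1 mouse, which eases full separation by construction, the difference in genes with a peak ranged from -9.08 to -3.92 (without ND mouse 1 and HFrD mouse 7) and in peaks per gene from -0.17 to -0.04, genes in ND mice alone from 0 to 1 (1 without ND mouse 1, 3 or 6 or HFrD mouse 5), genes in HFrD mice alone stayed at 1, regions in ND mice alone ranged from 2 to 4 (4 without HFrD mouse 2), regions in HFrD mice alone from 2 to 3 (3 without HFrD mouse 1 or ND mouse 6), peak numbers apart with ND higher from 2 to 5 (5 without ND mouse 6, 4 without ND mouse 1) and with HFrD higher from 1 to 2 (2 without HFrD mouse 1), fold enrichment apart with ND higher from 1 to 5 (5 without HFrD mouse 1, 4 without HFrD mouse 5, 2 without ND mouse 3 or 7) and with HFrD higher from 0 to 3 (3 without ND mouse 1, 1 without HFrD mouse 1), and the median log2 difference from -0.11 to -0.01. Mice 1 and 7 share only a number across diets (correlation of deviations 0.04 and -0.07 over 4346 regions). With the replicate block of mice 1 and 7, which needs only 2 mice a diet, 7 genes and 17 regions were held by ND mice alone, 2 genes and 6 regions by HFrD mice alone, peak numbers were apart for 16 and 4 genes and fold enrichment for 16 and 10 regions (ND and HFrD higher). These counts were not computed over all genes and regions, so they cannot be set against the lean of all genes to ND.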
